A study of Homo sapiens with 27 samples.

Results

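The interferon regulatory factors (IRFs) are a family of transcription factors, and 8 of its genes were followed from mRNA to ribosome: IRF1, IRF2, IRF3, IRF4, IRF5, IRF7, IRF8 and IRF9. They were taken as the rows of the RNA table and of the footprint table whose Ensembl identifier carries 1 of these symbols. Each symbol matched exactly 1 row, that is 8 of the 20453 genes counted.

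IRF proteins share an amino-terminal DNA-binding domain with conserved tryptophans that reads repeated GAAA, the core of the interferon-stimulated response element (ISRE). When lipopolysaccharide (LPS) engages Toll-like receptor 4 in a macrophage, the adaptor TRIF leads to phosphorylation of latent IRF3 by the kinase TBK1, and the adaptor MyD88 feeds IRF5. IRF3 helps to switch on interferon beta, whose receptor signals through JAK kinases to the complex ISGF3, of which IRF9 is a subunit. ISGF3 in turn induces IRF7, which amplifies the response. Glucocorticoids restrain much of this inflammatory programme through their nuclear receptor.

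All libraries came from THP-1, a single human monocytic leukaemia line, which in every group had first been differentiated towards macrophages for 24 h with PMA, a phorbol ester, at 10 ng/ml. The cells were then held for 3 h with vehicle (ethanol in PBS), with 100 ng/ml LPS, or with 100 ng/ml LPS and 1 µM of the synthetic glucocorticoid dexamethasone (LPS+Dex). No group had dexamethasone without LPS. Poly(A) RNA-seq had 4 libraries per treatment and ribosome profiling, which sequences the mRNA pieces protected by ribosomes, had 5. The labels say that RNA and footprints came from the same cells but do not state whether replicates were separate cultures, so the p-values speak for the spread of these libraries alone, which may be technical.

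RNA libraries held 19 to 30.7 M counts and footprint libraries 11.5 to 26.1 M. Library 4 of each treatment was set apart from its footprint group. For the 8 IRF genes it lay above the range of the 4 other libraries in 14 of 24 combinations of gene and treatment, below it in 7 and within it in 3. Values without these 3 libraries are therefore given beside many, though not all, of the results they touch. Of 9 monocyte and macrophage markers, 8 had a median of at least 1 CPM (counts brought to 1 common library size with edgeR's TMM factors) in every treatment and assay. CSF1R averaged 1030 CPM in RNA, and MRC1 only 0.271. Of 23 markers of T, B and NK cells, fibroblasts and epithelium, 6 reached a mean of 1 CPM in either assay (CD4, NCAM1, NKG7, GNLY, COL1A1 and PDGFRA). The B cell marker MS4A1 averaged 0.00242 CPM in RNA. These lists moved with treatment in RNA: the summed monocyte and macrophage markers were at 3140 to 3680 CPM with vehicle, 2330 to 2560 with LPS and 2390 to 2540 with LPS+Dex. The 4 fibroblast markers summed to 7.29 to 10.1, 13.6 to 15.2 and 34 to 41.4 CPM, and their part in the results was not tested.

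The start regions of 5 of the 8 genes (IRF1, IRF4, IRF5, IRF8 and IRF9) were matched in the RefSeq promoter table, with 9 windows in all. The 250 bases before the start were searched on both strands for 4 motifs. These were the ISRE (GAAANNGAAA), the STAT site GAS (TTCNNNGAA), the kB site of NF-kB, and a palindromic glucocorticoid response element (GNACANNNTGTNC). Among the 34941 windows of that length, 3.02% held the ISRE letters, 6.56% GAS, 9.95% kB and 0.326% the glucocorticoid element. IRF1 and IRF9 are shown because they had the largest RNA rises with LPS among the 8 genes and are the members whose windows held a match. Capitals mark the matches, GAS and then kB in IRF1 (chr5:132490774-132491023, minus strand) and GAS in IRF9 (chr14:24161015-24161264, plus strand), both in GRCh38.p14 and written 5′ to 3′.
IRF1: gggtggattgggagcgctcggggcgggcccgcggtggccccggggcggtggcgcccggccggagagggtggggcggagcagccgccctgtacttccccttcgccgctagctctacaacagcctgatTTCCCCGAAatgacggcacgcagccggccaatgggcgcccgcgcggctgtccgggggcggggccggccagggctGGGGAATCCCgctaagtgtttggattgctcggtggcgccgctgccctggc
IRF9: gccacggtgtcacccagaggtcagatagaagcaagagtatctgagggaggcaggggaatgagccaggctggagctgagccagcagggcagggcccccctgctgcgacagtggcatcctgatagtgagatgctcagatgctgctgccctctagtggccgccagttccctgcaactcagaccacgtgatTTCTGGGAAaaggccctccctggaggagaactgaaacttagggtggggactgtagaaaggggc
In IRF1 the GAS letters began 124 bases and the kB letters 50 bases before the start, and in IRF9 the GAS letters began 63 bases before it. None of the 4 motifs was found in the windows of IRF4, IRF5 or IRF8. The windows of IRF5 (from 128937677) and IRF8 (from 85902580) lay inside the genes, whose positions begin at 128937032 and 85899162. The bases before those positions were not searched for either gene. A match of letters is a description and not evidence of a bound site.

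With LPS, 4 IRF genes rose in RNA and 3 fell, out of 7 that could be tested (edgeR quasi-likelihood test, adjusted p under 0.05). IRF1, IRF7, IRF8 and IRF9 rose 2.88 to 6.09-fold, while IRF2, IRF3 and IRF5 fell. In footprints the same 4 genes and IRF4 rose, and the same 3 fell, so all 8 passed there. With 1 library left out 5 to 8 passed, and IRF2, IRF4 and IRF7 each lost their call in some of those fits. Most genes of these cells also passed: 62.2% of those tested in RNA (28.6% higher, 33.6% lower) and 52.6% in footprints (25.4% higher, 27.2% lower). The share of members called is therefore read against a high background, and the sizes of the changes differed widely between members. By absolute RNA change with LPS, IRF1, IRF9, IRF7 and IRF8 ranked 485, 638, 837 and 1522 of the 13327 genes tested. IRF5 ranked 4115, IRF3 5998 and IRF2 7892. The median log2 fold change, which mixes rises with falls, was 1.52 over the 7 members tested in RNA, against -0.05 over all genes tested. In footprints it was 1.14 over the 8 members, against -0.04 over all genes. The footprint set adds IRF4, whose value rests on few counts. Without IRF4 the middle footprint value is that of IRF7, 0.70.

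**Figure D1:**
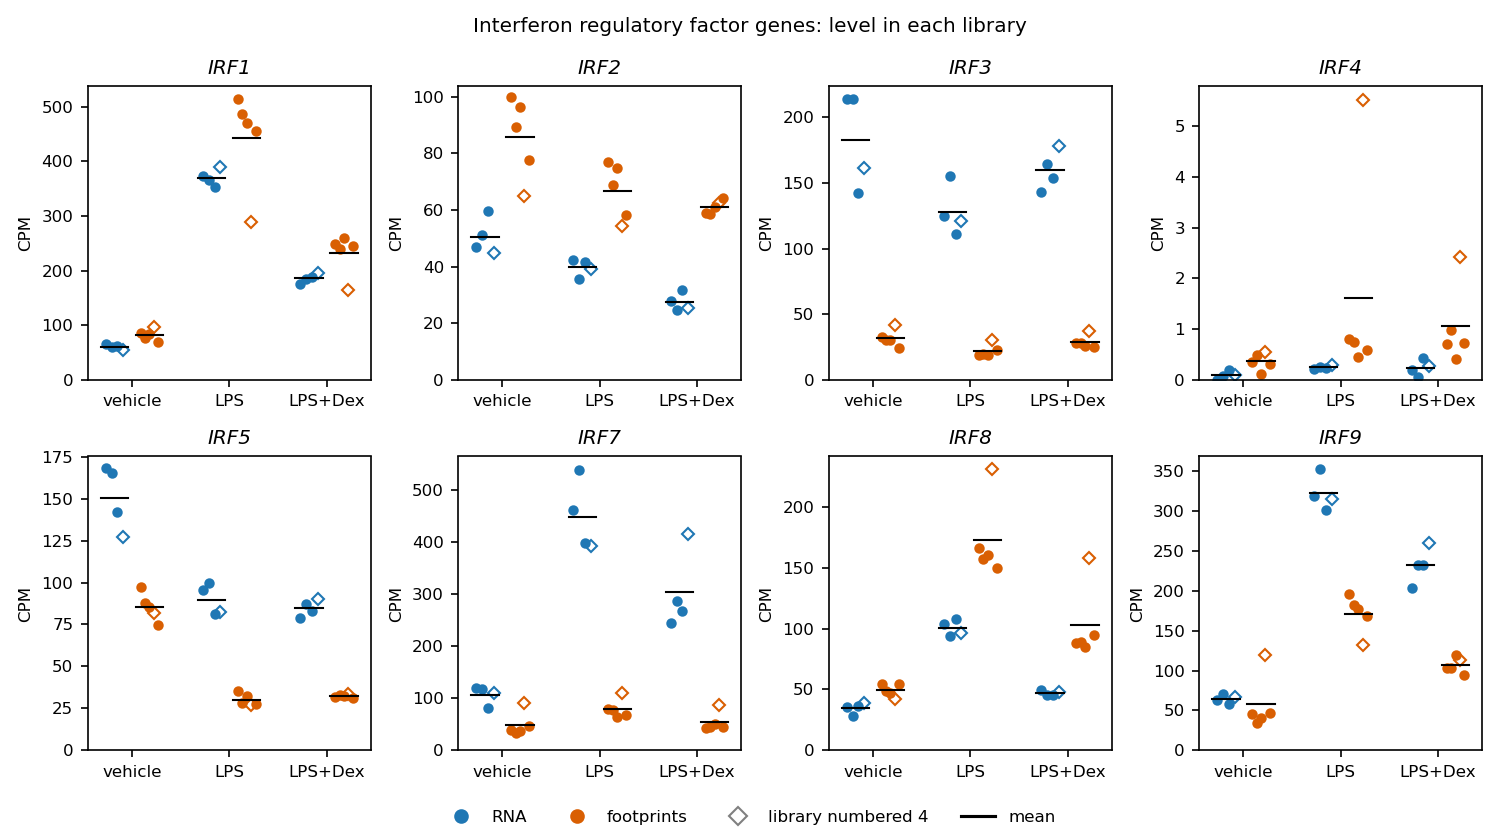
Level of each IRF gene in every library (CPM, linear axis from 0), RNA in blue and footprints in orange, with a bar at the mean of each treatment (4 RNA and 5 footprint libraries). Open diamonds are the libraries numbered 4. IRF1, IRF7, IRF8 and IRF9 are highest with LPS and lower with LPS+Dex, IRF5 is highest with vehicle, and IRF4 stays near 0 in all but the LPS and LPS+Dex footprint libraries numbered 4.

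IRF1, the first family member described and an inducible activator of antiviral and antigen presentation genes (ENSG00000125347, chromosome 5, 132481609 to 132490773), had the largest change of the family. Its RNA stood at 65.3, 60.7, 62.1 and 55.3 CPM in the 4 vehicle libraries, at 374, 366, 353 and 389 CPM with LPS, and at 176, 184, 188 and 195 CPM with LPS+Dex. The 3 groups did not overlap, with LPS highest and LPS+Dex between the others. The rise with LPS was 6.09-fold (log2 fold change 2.61 ± 0.07 SE, adjusted p = 9.8e-13). With dexamethasone on LPS it fell by 0.996 ± 0.065 on the log2 scale (adjusted p = 5e-08), and it remained 1.61 ± 0.07 above vehicle (adjusted p = 9.9e-11).

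IRF1 footprints moved with the RNA. They were 86.5, 77.3, 83.5, 97.7 and 68.8 CPM with vehicle, 515, 487, 471, 289 and 455 with LPS, and 249, 239, 259, 165 and 246 with LPS+Dex. No group overlapped another, although the library numbered 4 was the highest with vehicle and the lowest in both LPS groups. Footprints rose by 2.42 ± 0.16 with LPS (adjusted p = 1.5e-08), fell by 0.94 ± 0.16 with LPS+Dex against LPS (adjusted p = 0.00056) and lay 1.48 ± 0.16 above vehicle with LPS+Dex. Without the libraries numbered 4 these were 2.60, -0.95 and 1.65. Footprints per mRNA, the footprint change minus the RNA change, did not pass in any of the 3 comparisons of IRF1 (-0.14 ± 0.20, 0.05 ± 0.20 and -0.09 ± 0.20).

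IRF2, which binds the same sites and competes with IRF1 (ENSG00000168310, chromosome 4, 184387729 to 184474550), went down in RNA step by step across the 3 treatments. Its RNA was 46.8, 51.2, 59.5 and 44.8 CPM with vehicle, 42.3, 35.8, 41.6 and 39.2 with LPS, and 27.9, 24.7, 31.9 and 25.4 with LPS+Dex. No group overlapped another. IRF2 fell by 0.35 ± 0.11 with LPS (adjusted p = 0.011) and by a further 0.53 ± 0.11 with dexamethasone (adjusted p = 0.0016), ending 0.88 ± 0.11 below vehicle.

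In footprints IRF2 had a median of 89.4 CPM with vehicle (64.9 to 100), 68.8 with LPS (54.2 to 77) and 60.9 with LPS+Dex (58.4 to 64.2). Here the vehicle and LPS groups overlapped only through vehicle library 4 (64.9 CPM, others 77.5 to 100). LPS and LPS+Dex overlapped with or without the libraries numbered 4. The fall with LPS was 0.37 ± 0.12 (adjusted p = 0.019). It no longer passed when vehicle footprint library 1, 2 or 3 or LPS library 5 was left out (-0.34 to -0.29, adjusted p = 0.0507 to 0.0704), or when the fit held only vehicle and LPS (adjusted p = 0.055). The fall with LPS passed in 16 of 21 alternative fits, among them the fit without the libraries numbered 4. The value with dexamethasone on LPS was -0.13 ± 0.12 and did not pass (adjusted p = 0.58), although in RNA the gene fell. Footprints per mRNA for that step were 0.40 ± 0.18 and did not pass either (adjusted p = 0.82), so a difference between the assays was not shown. For LPS+Dex against vehicle they were 0.41 ± 0.18 (adjusted p = 0.27), and 0.44 in the fit with a replicate block (adjusted p = 0.03).

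Because IRF1 and IRF2 compete for sites, their counts were also divided within each library, a ratio that no library scaling can alter. This ratio and that of IRF7 to IRF3 were chosen with the values known, so they are given as a description with no test. In RNA there were 1.21 ± 0.145 IRF1 counts per IRF2 count with vehicle (SD, n = 4), 9.36 ± 0.839 with LPS and 6.84 ± 0.86 with LPS+Dex. In footprints the ratio was 0.997 ± 0.284 (n = 5), 6.65 ± 0.925 and 3.81 ± 0.675. The groups did not overlap in either assay. By the mean of its log2 values the ratio was 7.72-fold higher with LPS than with vehicle in RNA and 6.79-fold higher in footprints. With dexamethasone on LPS it was 1.37-fold lower in RNA and 1.76-fold lower in footprints. Footprint library 4 had the highest ratio with vehicle (1.5, group median 0.867). It had the lowest with LPS (5.33, median 6.69) and with LPS+Dex (2.64, median 4.09). It thus narrows the footprint rise with LPS, and the fold values were not computed without the 3 libraries numbered 4, so the assays are not compared by them.

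**Figure D2:**
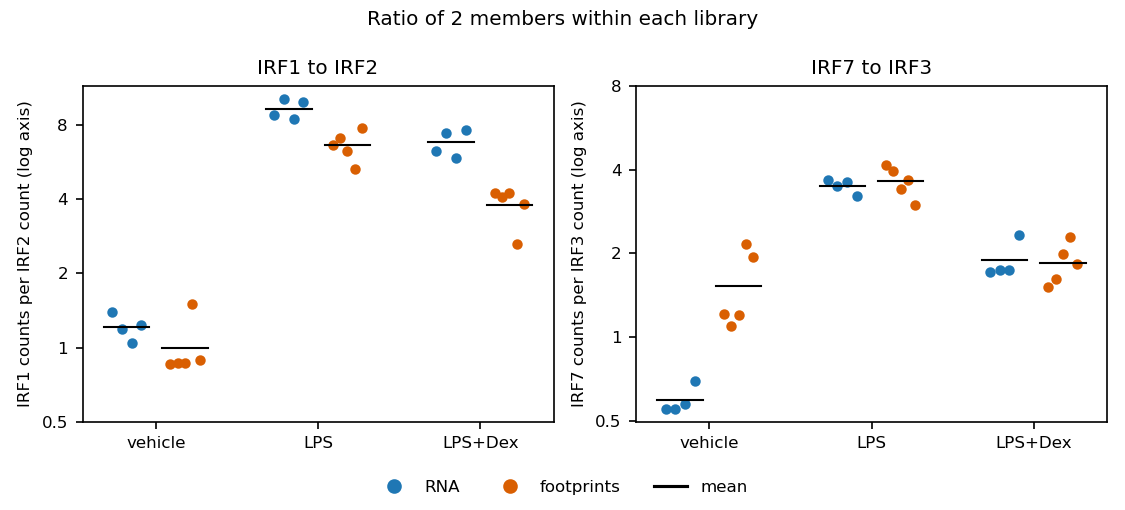
Counts of IRF1 per count of IRF2 (left) and of IRF7 per count of IRF3 (right) in each library, on log axes, RNA in blue and footprints in orange, with a bar at the mean. IRF1 to IRF2 goes from a mean of 1.21 to 9.36 in RNA with LPS and to 6.84 with LPS+Dex, and IRF7 to IRF3 from 0.592 to 3.5 and to 1.89.

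IRF3, the latent factor that TBK1 phosphorylates after TLR4 signalling (ENSG00000126456, chromosome 19, 49659572 to 49665857), fell with LPS in both assays. It overlaps the gene BCL2L12 over 716 bases, so counts in that stretch are uncertain. RNA was 214, 214, 142 and 161 CPM with vehicle, 125, 155, 111 and 121 with LPS, and 143, 164, 154 and 178 with LPS+Dex. The 3 groups overlapped one another. IRF3 RNA fell by 0.51 ± 0.14 with LPS (adjusted p = 0.0053), while LPS+Dex against LPS gave 0.32 ± 0.14 (adjusted p = 0.098). That last value passed without RNA library LPS 2 (0.42, adjusted p = 0.03), with only the LPS and LPS+Dex libraries (0.31, adjusted p = 0.035) and with the replicate block (0.33, adjusted p = 0.033).

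IRF3 footprints had medians of 30.4 CPM with vehicle (24.6 to 41.9), 19.8 with LPS (18.8 to 30.3) and 27.8 with LPS+Dex (25 to 37.6). The highest value of every treatment was that of library 4. LPS overlapped each of the other groups only through it, while vehicle and LPS+Dex overlapped with or without it. Footprints fell by 0.52 ± 0.16 with LPS (adjusted p = 0.013). LPS+Dex against LPS was 0.38 ± 0.16 and did not pass (adjusted p = 0.13), but it passed with the replicate block (adjusted p = 0.0025), without LPS library 4 (0.51, adjusted p = 0.025) and without the libraries numbered 4 (0.41, adjusted p = 0.0013). Neither assay differed between LPS+Dex and vehicle at the threshold (-0.19 ± 0.14 in RNA, -0.14 ± 0.16 in footprints). Footprints per mRNA of IRF3 were within 0.08 of 0 in each comparison, with an SE of 0.22.

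IRF7, the inducible amplifier of type I interferon (ENSG00000185507, chromosome 11, 612555 to 615950), rose strongly in RNA and weakly in footprints. RNA was 119, 117, 81.4 and 111 CPM with vehicle, 461, 539, 399 and 392 with LPS, and 244, 286, 268 and 416 with LPS+Dex. Both LPS groups lay wholly above vehicle, and they overlapped each other through LPS+Dex library 4. The rise with LPS was 4.18-fold (2.06 ± 0.17, adjusted p = 1.6e-07). The fall with dexamethasone was 0.56 ± 0.17 (adjusted p = 0.02) and did not pass without RNA library LPS 2 or LPS+Dex 1, 2 or 3 (-0.53 to -0.46, adjusted p = 0.0502 to 0.0616). Without LPS+Dex library 4 it was larger (-0.75, adjusted p = 0.0014).

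Footprints of IRF7 were 39.6, 33.1, 36.5, 90.5 and 47.8 CPM with vehicle, 80.1, 78, 64.1, 111 and 68.7 with LPS, and 42.6, 45, 51.5, 86.3 and 45.7 with LPS+Dex. Library 4 was the highest in each treatment. LPS overlapped the other groups only through libraries numbered 4, while vehicle and LPS+Dex overlapped with or without them. The footprint rise with LPS was 0.70 ± 0.27 (adjusted p = 0.042). This call was lost without vehicle library 1, 2, 3 or 5 or LPS library 1, 2 or 4 (0.56 to 0.72, adjusted p = 0.061 to 0.10), and it was 0.88 with adjusted p = 4.5e-08 without the 3 libraries numbered 4. LPS+Dex against LPS gave -0.57 ± 0.27 (adjusted p = 0.19), which passed with the replicate block (-0.60, adjusted p = 0.00044), without LPS+Dex library 4 (-0.80, adjusted p = 0.041) and without the libraries numbered 4 (-0.65, adjusted p = 1.1e-05). Against vehicle, LPS+Dex footprints were at 0.13 ± 0.27 (adjusted p = 0.73), while the RNA was 1.505 ± 0.17 higher (adjusted p = 3.9e-06). That footprint value did not pass in any of 21 alternative fits (-0.09 to 0.46).

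Footprints per mRNA of IRF7 were lower with LPS than with vehicle by 1.33 ± 0.34 on the log2 scale (adjusted p = 0.043). Only 1.51% of all genes tested passed in that comparison (0.987% higher, 0.526% lower), and IRF5 and IRF7 were the 2 members among them, both lower. The ratio of mean footprint CPM to mean RNA CPM of IRF7 was 0.462 with vehicle, 0.18 with LPS and 0.179 with LPS+Dex. Without the footprint libraries numbered 4 the footprint means were 39.2, 72.7 and 46.2 CPM, against 49.5, 80.4 and 54.2 in these ratios. For LPS+Dex against vehicle, footprints per mRNA were at -1.35 ± 0.34 (adjusted p = 0.04), the only call among the members there, where 1.54% of all genes passed (1.12% higher, 0.424% lower). The LPS call sits close to the threshold. It ended when any 1 of 21 of the 27 libraries was left out (-1.40 to -1.003, adjusted p = 0.0504 to 0.0985), these being every library except footprint vehicle 2 and 3, LPS 4 and LPS+Dex 4 and RNA LPS+Dex 1 and 4. It also ended with RLE scaling (-1.35, adjusted p = 0.051), with only the vehicle and LPS libraries (-1.34, adjusted p = 0.068) and with only libraries numbered 1 to 4 (-1.30, adjusted p = 0.10). Without the 3 footprint libraries numbered 4 it was -1.12 (adjusted p = 0.0013), and with the replicate block -1.27 (adjusted p = 0.00015). The LPS+Dex call ended without any 1 of 12 libraries, namely footprint vehicle 5, LPS 1 and 2 and LPS+Dex 1, 2, 3 and 5, and RNA vehicle 3 and 4, LPS 1 and LPS+Dex 2 and 4 (-1.37 to -1.16, adjusted p = 0.052 to 0.12). It ended too with only the vehicle and LPS+Dex libraries (-1.34, adjusted p = 0.095) and with only libraries numbered 1 to 4 (-1.31, adjusted p = 0.11), and was -1.22 (adjusted p = 0.0005) without the libraries numbered 4.

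IRF7 and IRF3 are close relatives that act one after the other, and their ratio within a library is described in the same way. In RNA there were 0.592 ± 0.0676 IRF7 counts per IRF3 count with vehicle (SD, n = 4), 3.5 ± 0.194 with LPS and 1.89 ± 0.301 with LPS+Dex. In footprints these were 1.52 ± 0.494 (n = 5), 3.63 ± 0.459 and 1.85 ± 0.311. LPS and vehicle did not overlap in either assay, nor did LPS and LPS+Dex. The ratio was 5.93-fold higher with LPS than with vehicle in RNA and 2.47-fold higher in footprints. With dexamethasone on LPS it was 1.87-fold and 1.98-fold lower.

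IRF9, the DNA-binding subunit of ISGF3 (ENSG00000213928, chromosome 14, 24161265 to 24166565), rose in RNA nearly as much as IRF1. RNA was 62.8, 71, 57.6 and 67.3 CPM with vehicle, 319, 352, 301 and 315 with LPS, and 203, 232, 232 and 259 with LPS+Dex, with no overlap between groups. The rise was 4.97-fold (2.31 ± 0.09, adjusted p = 5.2e-11). Dexamethasone lowered it by 0.47 ± 0.09 (adjusted p = 0.00072), which left it 1.84 ± 0.09 above vehicle.

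IRF9 footprints were 45.4, 34.8, 41.1, 120 and 47 CPM with vehicle, 196, 182, 177, 132 and 168 with LPS, and 103, 103, 119, 113 and 94.7 with LPS+Dex. LPS was above both other groups in every library, and LPS+Dex overlapped vehicle only through vehicle library 4. The rise with LPS was 1.57 ± 0.27 (adjusted p = 0.00019), or 2.09 without the libraries numbered 4. Dexamethasone on LPS gave -0.68 ± 0.27 (adjusted p = 0.10). It passed with the replicate block (-0.71, adjusted p = 0.021), without vehicle library 4 (-0.68, adjusted p = 0.00046), with only the LPS and LPS+Dex libraries (-0.68, adjusted p = 0.0014) and without the libraries numbered 4 (-0.78, adjusted p = 7.4e-08). Footprints per mRNA of IRF9 were -0.70 ± 0.32 with LPS (adjusted p = 0.38) and -0.16 without the libraries numbered 4 (adjusted p = 0.63), so no change was detected. For LPS+Dex against vehicle they were -0.92 ± 0.32 (adjusted p = 0.15), and -0.47 without those libraries (adjusted p = 0.034).

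IRF5, the factor that MyD88 signalling activates to drive inflammatory cytokine genes (ENSG00000128604, chromosome 7, 128937032 to 128950038), fell with LPS and fell more in footprints than in RNA. RNA was 168, 165, 142 and 127 CPM with vehicle, 95.8, 100, 81 and 82.5 with LPS, and 78.6, 87.5, 83 and 90 with LPS+Dex. Footprints were 97.4, 87.8, 85.2, 81.7 and 74.7 CPM with vehicle, 35.4, 28.5, 32.4, 27 and 27.5 with LPS, and 31.8, 33, 32.5, 33.4 and 31.1 with LPS+Dex. In both assays every vehicle library was above every LPS and LPS+Dex library, and the last 2 groups overlapped.

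The fall of IRF5 with LPS was 0.75 ± 0.10 in RNA (adjusted p = 1.7e-05) and 1.5 ± 0.088 in footprints (adjusted p = 3e-09), or 1.68-fold and 2.83-fold. Footprints per mRNA fell by 0.72 ± 0.15 (adjusted p = 0.0074), and this passed in all 34 alternative fits (-0.79 to -0.64, adjusted p up to 0.037). The ratio of mean footprint CPM to mean RNA CPM was 0.566 with vehicle, 0.336 with LPS and 0.382 with LPS+Dex. No change of IRF5 with dexamethasone on LPS was detected (-0.08 ± 0.10 in RNA, adjusted p = 0.55, and 0.10 ± 0.09 in footprints, adjusted p = 0.53). Footprints per mRNA for LPS+Dex against vehicle were at -0.54 ± 0.15 (adjusted p = 0.059). This passed in 10 of 34 alternatives, among them the replicate block (adjusted p = 0.0034), DESeq2 (-0.58, adjusted p = 0.0072), RLE scaling (-0.58, adjusted p = 0.036) and the fit without the libraries numbered 4 (adjusted p = 0.02). It also passed when 1 of footprint vehicle 4 or 5, LPS 1 or 4, or RNA vehicle 1 or 2 was left out (-0.60 to -0.53, adjusted p = 0.038 to 0.048).

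**Figure D3:**
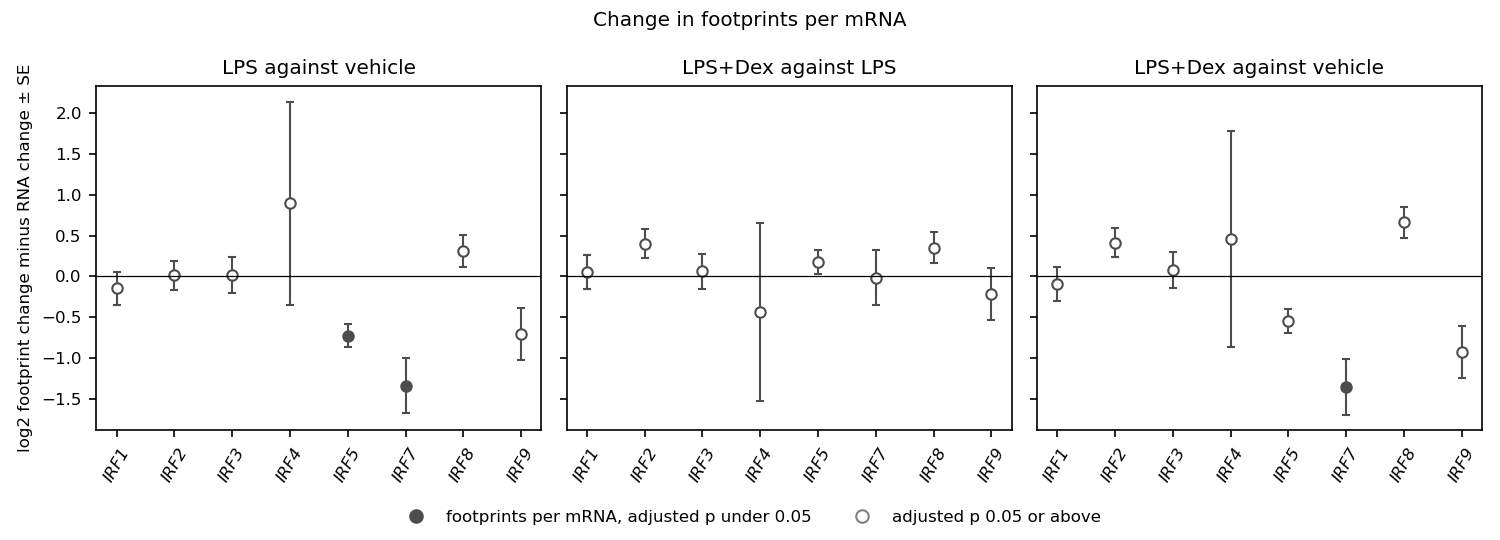
Change in footprints per mRNA (log2 footprint change minus log2 RNA change, ± SE, from 27 libraries) for each IRF gene in 3 comparisons. Filled points have an adjusted p under 0.05. IRF5 and IRF7 are lower with LPS than with vehicle (-0.72 and -1.33), IRF7 is lower with LPS+Dex than with vehicle (-1.35), and no member passed for LPS+Dex against LPS.

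IRF8, a regulator of monocyte and dendritic cell identity that partners with PU.1 (ENSG00000140968, chromosome 16, 85899162 to 85922609, with the microRNA gene MIR6774 inside it), rose with LPS in both assays, and dexamethasone lowered it in both. RNA was 35.6, 28.3, 36.8 and 38.9 CPM with vehicle, 104, 94.1, 108 and 96.2 with LPS, and 49.2, 45.1, 45.2 and 47.6 with LPS+Dex, with no overlap. The LPS rise was 2.88-fold (1.52 ± 0.09, adjusted p = 6.2e-09). With dexamethasone it fell by 1.10 ± 0.09 (adjusted p = 5.9e-07), the largest RNA fall of the family in that comparison, and ended 0.42 ± 0.09 above vehicle (adjusted p = 0.0014).

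Footprints of IRF8 were 54.3, 48.4, 46.8, 42.5 and 54.3 CPM with vehicle, 166, 157, 160, 231 and 150 with LPS, and 88.5, 89.2, 85, 158 and 95 with LPS+Dex. LPS and LPS+Dex overlapped only through LPS+Dex library 4, and vehicle was below both. They rose by 1.81 ± 0.17 with LPS (adjusted p = 5.6e-07), fell by 0.75 ± 0.17 with dexamethasone (adjusted p = 0.0058), and stood 1.07 ± 0.17 above vehicle with LPS+Dex (adjusted p = 0.00011). Without the libraries numbered 4 these were 1.63, -0.82 and 0.81. The footprints of IRF8 per mRNA were 0.31 ± 0.19 with LPS and 0.35 ± 0.19 for LPS+Dex against LPS, neither past the threshold. The value for LPS+Dex against vehicle was 0.66 ± 0.19 (adjusted p = 0.086). That passed with the replicate block (0.62, adjusted p = 0.016), without the libraries numbered 4 (0.45, adjusted p = 0.015), without footprint LPS library 4 (0.67, adjusted p = 0.042) and without RNA vehicle library 2 (0.74, adjusted p = 0.049).

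IRF4, a factor best known from lymphocytes and alternatively activated macrophages (ENSG00000137265, chromosome 6, 391752 to 411443), was close to the detection limit. It had 0 to 8 counts in any RNA library and did not pass the filter on low counts there. Its footprints per mRNA, fitted over both assays, rest on almost no RNA and say little. They were 0.89 ± 1.24 with LPS, -0.44 ± 1.08 for LPS+Dex against LPS and 0.46 ± 1.31 for LPS+Dex against vehicle. Footprint counts were 10, 12, 3, 8 and 10 with vehicle, 19, 15, 10, 84 and 15 with LPS, and 18, 25, 5, 35 and 15 with LPS+Dex, which is 0.113 to 5.52 CPM. The LPS and LPS+Dex libraries numbered 4 were far above the rest of their groups. The footprint value of 2.12 ± 0.73 with LPS passed (adjusted p = 0.024), but it was 0.86 without LPS library 4 (adjusted p = 0.15), 1.88 without vehicle library 3 (adjusted p = 0.057) and 1.01 without the 3 libraries numbered 4 (adjusted p = 0.031). LPS+Dex against LPS did not pass (-0.57 ± 0.67), and its sign turned without the libraries numbered 4 (0.21, adjusted p = 0.73). LPS+Dex against vehicle was 1.55 ± 0.75 (adjusted p = 0.11), and it passed with the replicate block (1.35, adjusted p = 0.0053), without footprint LPS library 4 (1.55, adjusted p = 0.012), with only the vehicle and LPS+Dex libraries (1.54, adjusted p = 0.027) and without the libraries numbered 4 (1.21, adjusted p = 0.012).

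Dexamethasone on top of LPS therefore lowered 5 of the 7 tested IRF genes in RNA, namely IRF1, IRF2, IRF7, IRF8 and IRF9, and raised none. Of all genes tested, 30.9% were called, 15.5% higher and 15.4% lower. By the unadjusted p, 1 member (IRF3) was higher at under 0.05, and DESeq2 also called 5 lower and none higher. In footprints 2 of 8 members, IRF1 and IRF8, were lower and none higher by edgeR and by DESeq2, where 17.1% of all genes were called, 9.08% higher and 7.99% lower. At an unadjusted p under 0.05 edgeR had 3 lower and 1 higher, and DESeq2 4 lower and 1 higher. With the replicate number as a block, and likewise without the libraries numbered 4, 4 members were lower (IRF1, IRF7, IRF8 and IRF9) and IRF3 was higher. Those fits also called more of all genes, 30.9% with the block (16.1% higher, 14.8% lower) and 31.5% without the libraries numbered 4 (16.2% higher, 15.3% lower). The median was -0.53 over the 7 members tested in RNA and -0.57 over the 8 in footprints, against 0.01 and 0.02 over all genes. None of the 8 passed in footprints per mRNA by edgeR or DESeq2, where only 0.0366% of all genes were called (0.0292% higher, 0.00731% lower). IRF4 is counted there although its RNA was almost empty (SE 1.08). At an unadjusted p under 0.05, 1 member was higher by each tool, which for edgeR was IRF2.

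Against vehicle, LPS+Dex left 4 members higher in RNA (IRF1, IRF7, IRF8, IRF9) and 2 lower (IRF2, IRF5), with 60.2% of all genes called (29.2% higher, 31% lower). In footprints 3 were higher (IRF1, IRF8, IRF9) and 2 lower (IRF2, IRF5), with 46.4% called (24.4% higher, 22% lower). This comparison shares its libraries with the other 2, so the 3 sets of values are not independent.

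**Figure D4:**
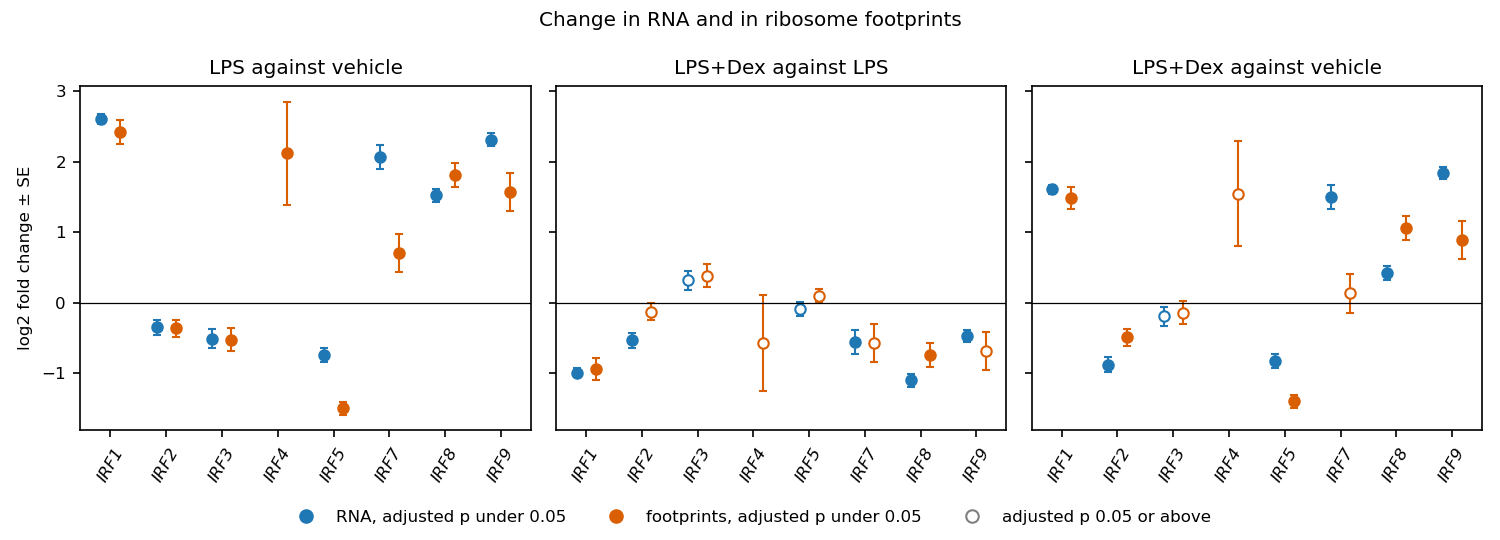
Log2 fold change ± SE of each IRF gene in RNA (blue) and in footprints (orange) for the 3 comparisons. Filled points have an adjusted p under 0.05, and IRF4 was not tested in RNA. IRF1, IRF7, IRF8 and IRF9 rise with LPS, with IRF7 at 2.06 in RNA and 0.70 in footprints, and 5 members fall in RNA with dexamethasone on LPS.

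Some genes followed a member closely over the 12 RNA libraries. Their likeness is Pearson's r of log2 CPM, with up to 3 of the highest among 8458 genes named. These libraries fall into the same 3 treatments, which raises every such r, and no test is attached. IRF1 was followed by CASP5, an inflammatory caspase (r = 0.998 in RNA and 0.974 over the 15 footprint libraries), STAT4 (0.997 and 0.900) and PIM2 (0.997 and 0.918). IRF9 was followed by the interferon-induced genes ISG20 (0.998 and 0.764) and XAF1 (0.997 and 0.983), and by CD70 (0.997 and 0.887). IRF7 was followed by IFI35, another interferon-induced gene (0.996 and 0.976), PHF11 (0.993 and 0.617) and the MHC class I gene HLA-F (0.992 and 0.834).

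The other members had their own companions. IRF8 was followed by the immune receptor SLAMF7 (0.993 in RNA and 0.857 in footprints), NMT2 (0.990 and 0.644) and MPZL1 (0.990 and 0.952). IRF5 was followed by the DNA repair scaffold XRCC1 (0.988 and 0.909), ARAP3 (0.981 and 0.609) and CAVIN3 (0.980 and 0.889), IRF3 by CRELD2 (0.988 and 0.746), NPDC1 (0.986 and 0.723) and MTX2 (0.986 and 0.315), and IRF2 by the cytokine receptor chain CSF2RB (0.976 and 0.527) and PEX5L (0.974 and 0.558).

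Other genes of the pathway are given by list. The lists are textbook knowledge but were chosen with earlier results of these data known, so their shares and medians are descriptions. Beside them, of all genes tested in RNA, 28.6% rose and 33.6% fell with LPS (median -0.05). With dexamethasone on LPS 15.5% rose and 15.4% fell (median 0.01). In footprints 25.4% rose and 27.2% fell with LPS (median -0.04), and 9.08% rose and 7.99% fell with dexamethasone on LPS (median 0.02). Upstream of the IRFs, the kinases and adaptors moved in both directions. Of 16 listed genes 15 were tested in RNA, and with LPS 8 rose and 3 fell, with a median of 0.49. The largest rise was that of TANK, a scaffold of TBK1 (1.32 ± 0.06), and the largest fall that of STING1, the adaptor of cytosolic DNA sensing (-1.81 ± 0.13). In footprints 7 rose and 3 fell. With dexamethasone 3 rose and 4 fell in RNA, led by SLC15A4, an endolysosomal transporter (0.74 ± 0.08), and by TASL, the adaptor that links it to IRF5 (-1.80 ± 0.14). TASL footprints fell as well (-2.08, adjusted p = 3.5e-06), and those of SLC15A4 were at 1.07 (adjusted p = 0.077).

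Among the interferons, 2 of 11 listed genes had enough counts, IFNB1 and IFNL1, and both rose with LPS in both assays. IFNB1, the interferon beta that IRF3 helps to induce, had 0 to 2 RNA counts in the 4 vehicle libraries and 54 to 140 with LPS, and 0 to 4 footprint counts in the 5 vehicle libraries and 190 to 450 with LPS. With so few vehicle counts no fold change is given for LPS. With dexamethasone both fell in RNA, IFNL1 by 1.01 ± 0.33 (adjusted p = 0.03) and IFNB1 by 0.94 ± 0.28 (adjusted p = 0.02). Their footprints were at -0.85 (adjusted p = 0.31) and -1.23 (adjusted p = 0.055). Of 12 genes of interferon receptors and JAK-STAT signalling, 11 were tested. With LPS 9 rose and 1 fell in RNA, the latter being the receptor chain IFNGR1 (-0.61 ± 0.06). With dexamethasone 2 rose and 4 fell, and the kinase gene JAK1 had the largest rise (0.96 ± 0.13).

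Partners of the IRF proteins split in RNA with LPS, 4 of 7 tested rising and 3 falling. BATF2, which pairs with IRF proteins, rose by 3.59 ± 0.17, and the corepressor IRF2BP2 fell by 1.46 ± 0.16. With dexamethasone 2 rose and 3 fell, with SPI1 (PU.1, the partner of IRF8) at 0.33 ± 0.10 and BATF2 at -1.11 ± 0.15. Of 7 negative regulators 6 rose with LPS in RNA, SOCS3 the most at 5.70 ± 0.16. With dexamethasone 4 fell, SOCS3 again the most at -0.89 ± 0.12.

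Of 27 textbook IRF target genes 22 rose and 2 fell in RNA with LPS, with a median of 3.69. IDO1, the tryptophan-degrading enzyme, rose most (8.29 ± 0.17), and NLRC5, an activator of MHC class I genes, fell most (-0.92 ± 0.09). With dexamethasone 20 fell and 3 rose in RNA (median -1.09), and 10 fell and 2 rose of 26 tested in footprints. VCAM1, an adhesion molecule, fell by 3.81 ± 0.18, while KLF4, a macrophage transcription factor, rose by 2.21 ± 0.10.

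**Figure D5:**
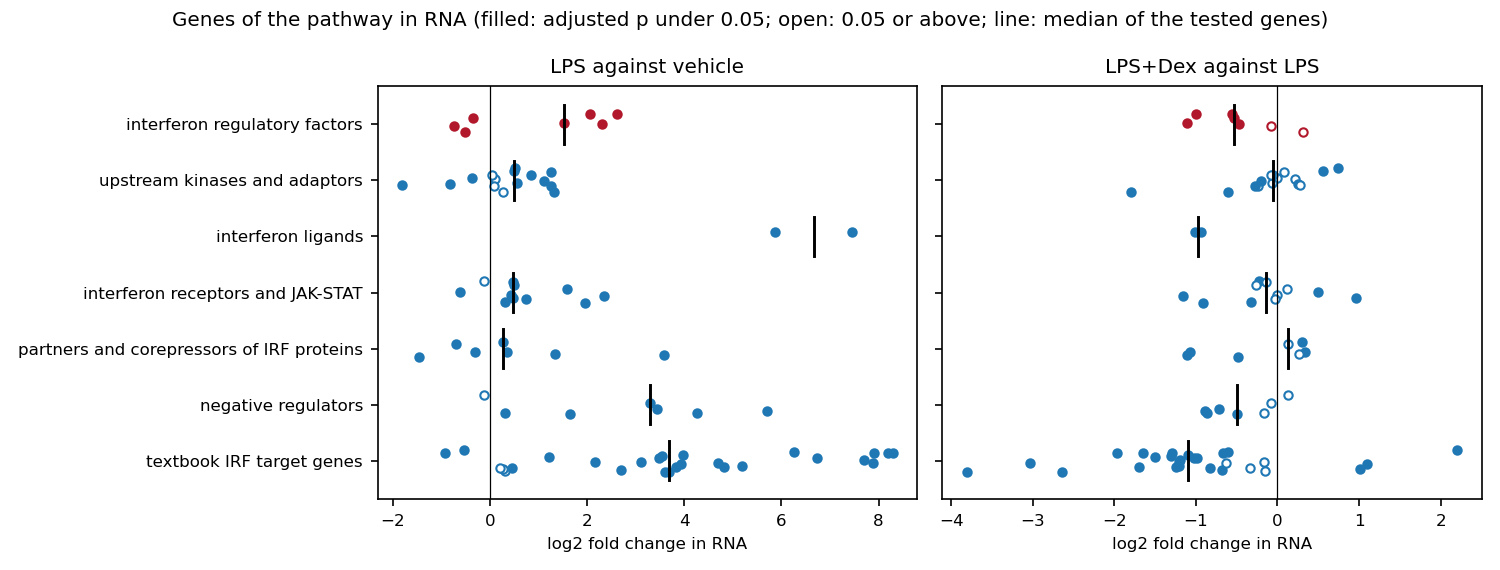
Log2 fold change in RNA of the tested IRF genes (red) and of 6 lists of pathway genes (blue) for LPS against vehicle and LPS+Dex against LPS, 1 point per gene. Filled points have an adjusted p under 0.05, and vertical bars are the medians of the tested genes. The lists were chosen with earlier results of these data known. The textbook IRF target genes have a median of 3.69 with LPS and -1.09 with dexamethasone, and the IRF genes 1.52 and -0.53.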

How the data were processed

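The authors deposited raw counts per Ensembl gene for 12 RNA-seq and 15 ribosome profiling libraries. The submitters' processing notes name STAR 2.7.10a, featureCounts 2.0.1 and DESeq2 1.26.0, with Bowtie2 2.4.5 for footprints, and GRCh38/hg38. The annotation, strand setting and handling of shared reads: not given in the sources used here. No feature lengths were at hand, so levels of different genes were not compared. Gene positions and promoter windows are RefSeq's for GRCh38.p14.

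Here edgeR 4.0.16 (R 4.3.3) was run on those counts (filterByExpr, TMM, quasi-likelihood F test, 2-sided, Benjamini-Hochberg over all genes tested, called under 0.05), after the fits were tested on simulated data. RNA and footprints were fitted separately over the 3 treatments, and footprints per mRNA as the interaction of assay and treatment over 27 libraries. SE is the log2 fold change divided by the square root of F. In the simulated data, for LPS against vehicle, true log2 changes of 1 were called in 86% of cases in RNA and 82% in footprints. In footprints per mRNA this was 47%, and 89% for changes of 2. A footprints per mRNA value that did not pass therefore says less than one in RNA or footprints. The simulation had 1 seed, 100 changed genes per size, and independent counts with the spread that edgeR's trend gives at each level. It held no shift of the libraries numbered 4, so these shares may be too high for the real footprints. Alternatives were RLE scaling, DESeq2 1.42.0, no filter, a replicate block, each library left out, only the treatments compared, no footprint library numbered 4, and for footprints per mRNA only libraries numbered 1 to 4.

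All 8 members are named, with the 3 genes most like each in RNA (log2 CPM with a prior count of 2, among genes averaging 5 CPM or more in RNA and in footprints) and, from each pathway list, the called gene with the largest rise and fall in RNA. A pair of genes that this rule picks is not reported here. Members and lists were chosen with earlier results of these data known.

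After treatment means were removed, footprint libraries of equal number correlated above 0.1 in 15 of 15 pairs (median r = 0.271) and those of different number in 34 of 60. Without the libraries numbered 4 this was 3 of 12 and 2 of 36, and in RNA it was 7 of 12 and 13 of 36. In footprints the median r of different numbers was 0.169, and without the libraries numbered 4 the medians were 0.045 (equal) and -0.017 (different). In RNA they were 0.207 and -0.042. Libraries of equal number were thus somewhat more alike in both assays, in footprints only weakly so without the libraries numbered 4. The labels do not say that equal numbers belong together, so a pairing is not established. The tests given first hold no block, and the value with a replicate block stands beside each member whose call it changes. No 2 libraries held identical values.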

Additional observations from a re-analysis of the deposited data

Results flagged for a closer look

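In 10 of the 48 groups of CPM values (8 genes, 2 assays, 3 treatments) 1 library lay far from the others by Dixon's criterion, which chance alone meets in about 1 of 20 groups. All 10 were footprint libraries numbered 4. IRF1 was low in it with LPS (289 CPM, others 455 to 515) and with LPS+Dex (165, others 239 to 259). IRF3 was high with LPS+Dex (37.6, others 25 to 28.2). IRF4 was high with LPS (5.52, others 0.447 to 0.806) and with LPS+Dex (2.42, others 0.413 to 0.992). IRF7 was high with vehicle (90.5, others 33.1 to 47.8) and with LPS+Dex (86.3, others 42.6 to 51.5). IRF8 was high with LPS (231, others 150 to 166) and with LPS+Dex (158, others 85 to 95). IRF9 was high with vehicle (120, others 34.8 to 47).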

How the results depend on the processing

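Of 1677 values of single members under the alternatives, 1588 kept their side of the threshold and 0 called values changed sign. Over all members, called counts in RNA stayed within 1.5 times under every alternative (4 to 5 for LPS+Dex against LPS with 1 library left out). The ratios within libraries, an alternative added after the data were seen, stayed within 1 SD with any library left out. In footprints, LPS+Dex against LPS had 2 members called, 5 with the replicate block, 5 without the 3 footprint libraries numbered 4, and 2 to 3 with 1 library left out, while LPS against vehicle had 8 and 5 to 8. In footprints per mRNA, LPS against vehicle had 2 members called, 1 with RLE scaling, 1 with only the 2 treatments, 1 with libraries numbered 1 to 4, and 1 to 2 with 1 library left out. LPS+Dex against vehicle had 1, 2 with RLE scaling, 2 with DESeq2, 4 with the replicate block, 4 without the libraries numbered 4, 0 with only the 2 treatments, 0 with libraries numbered 1 to 4, and 0 to 3 with 1 library left out. The replicate block changed no member's call other than those given with the results.

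Over all genes, calls in footprints for LPS+Dex against LPS were 2083, 3769 with the block and 3855 without the libraries numbered 4. In footprints per mRNA the 3 comparisons had 207, 5 and 211 calls, 442, 23 and 485 by DESeq2, 900, 71 and 1425 with the block, 674, 51 and 1036 without the libraries numbered 4, and 128 to 299, 4 to 12 and 130 to 330 with 1 library left out. LPS+Dex against LPS had 3 with libraries numbered 1 to 4. Of the calls in footprints per mRNA, 65.2%, 80% and 72.5% were higher, against 51.8%, 65.2% and 54.6% by DESeq2, and 61.6% with RLE scaling for LPS+Dex against vehicle. Depth limits IRF4, which had at most 8 counts in any RNA library.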
